A study of Mesocricetus auratus with 24 samples.

Results

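Regulators of G-protein signalling (RGS proteins) switch off the G proteins that G-protein-coupled receptors activate. In the inferior colliculus (IC) of hamsters 10 RGS genes were followed, Rgs2, Rgs3, Rgs4, Rgs6, Rgs7, Rgs8, Rgs9, Rgs10, Rgs16 and Rgs17. The IC is the auditory midbrain nucleus in which audiogenic seizures start. A gene was included where a probe set of the array carried its symbol alone, and of several such probe sets the brightest on average stood for it. This gave values for 9 of the 10 genes, out of 19938 genes tested in all. Rgs10 was not analysed here.

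RNA from the IC of 24 animals aged 16 weeks was hybridised to arrays in 4 groups of 6: stimulated GASH/Sal, naïve GASH/Sal, stimulated Syrian and naïve Syrian hamsters. GASH/Sal is a line bred for seizures evoked by loud sound, and the Syrian hamsters are its controls without that trait, so a strain difference holds everything in which the line differs from its controls. Stimulated animals of both strains received auditory stimulation and their IC was taken 60 min after the seizures or the sound. The labels give no record of the response of each animal, and naïve animals received no sound. The labels name the animals in 2 styles, called label series A (replicates 1 to 3 of every group) and label series B (replicates 4 to 6) here. The sources used here do not give what the styles stand for.

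A receptor that binds its ligand loads the G-protein α subunit with GTP, and the α subunit and the βγ dimer then act on effectors such as adenylyl cyclases, phospholipase C and inwardly rectifying potassium channels. RGS proteins speed up GTP hydrolysis by the α subunit, so that the signal ends sooner after the ligand has left. In mammals the small R4 proteins (here Rgs2, Rgs3, Rgs4, Rgs8 and Rgs16) consist of little more than the RGS domain, the R7 proteins (Rgs6, Rgs7 and Rgs9) are stable only with the β subunit Gnb5, and Rgs17 belongs to the RZ proteins, which act on the α subunit Gnaz and its relatives. In rodent neurons Rgs2 is known as a transcript that neuronal activity induces.

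Values are log2 probe set signals. The probes were designed for mouse transcripts and the RNA came from hamsters, so a gene's values can be set against its own values on other arrays but not against another gene's. A percentile below ranks the mean signal of a probe set within the genes tested and does not give its expression. The 9 probe sets lay between percentile 42.7 (Rgs6) and percentile 88.3 (Rgs7), with Rgs2 at percentile 52.7 and Rgs17 at percentile 53.2. Array medians ran between 4.50 and 4.65, correlations across genes between arrays were 0.965 to 0.993, and group differences had a median standard error of 0.0895 over all genes. A pair of arrays stood apart from the others of their group and label series, stimulated Syrian replicate 4 (root mean square distance 0.335, log2) and naïve GASH/Sal replicate 6 (0.326), against 0.160 to 0.238 for the other 22. Differences of members that rest on them are given with and without them. Differences of pathway and marker genes are given over all arrays only, and how far they rest on this pair is not given here. Of the 9 listed midbrain and neuronal markers, Tfap2d, Slc17a6, Gad1 and Snap25 had signals at percentiles 93.4, 97.7, 98.7 and 99.7 in this order. Because a percentile does not give expression, these values do not check the labelled tissue. The signals of 12 cerebellar markers ran between percentile 14.5 (Neurod1) and percentile 97.1 (Pvalb), with Gabra6 at 20.3, Car8 at 64.5 and Cbln1 at 81.1, so this list did not tell whether cerebellar tissue was present. In bulk tissue fewer cells of a type and less RNA per cell cannot be told apart.

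Over the 4 groups Rgs2 was the member that differed most between stimulated and naïve animals, with most of the difference in label series A. Rgs4, Rgs8, Rgs9, Rgs16 and Rgs17 showed smaller differences. The sound response of Rgs16 had opposite signs in the label series, and the Syrian differences of Rgs8 and Rgs17 were smaller without stimulated Syrian replicate 4. Rgs3, Rgs6 and Rgs7 had the narrowest ranges over all arrays (0.459, 0.517 and 0.372, log2). Rgs3 was nevertheless at 0.12 in the Syrian sound response with the probe set used, and at -0.11 with its other probe set. No member passed an adjusted p (limma, Benjamini-Hochberg over all 19938 genes, threshold 0.05) in any of 7 comparisons over all arrays, in which hardly any gene passed: 0% of genes in the sound response of each strain, the strain difference in each sound condition and the difference of the responses, 0.00502% in the mean sound response over both strains (1 gene, Fos) and 0.01% in the mean strain difference (2 genes). At an unadjusted p under 0.05 there was 1 member of 9, Rgs2, in the GASH/Sal sound response, where 4.46% of all genes passed, and again Rgs2 alone in the mean sound response, where 7.39% passed. No member passed at that threshold in the Syrian sound response (6.64% of all genes), the naïve strain difference (6.02%), the stimulated strain difference (5.42%), the strain by sound difference (3.68%) or the mean strain difference (7.99%). A two-sided exact permutation test of 6 against 6 arrays was run on the 9 members in the 4 pairwise comparisons, without the label series. It gave p under 0.05 for Rgs2 in the Syrian sound response (exact p = 0.0411, smallest possible 0.00216). It also did so for Rgs17 in the naïve strain difference (exact p = 0.0368), and for no other. The test was not run on all genes, and its p-values were not adjusted for the number of tests. Whether these calls exceed chance was therefore not tested, and they are not read as results about the members.

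**Figure D1:**
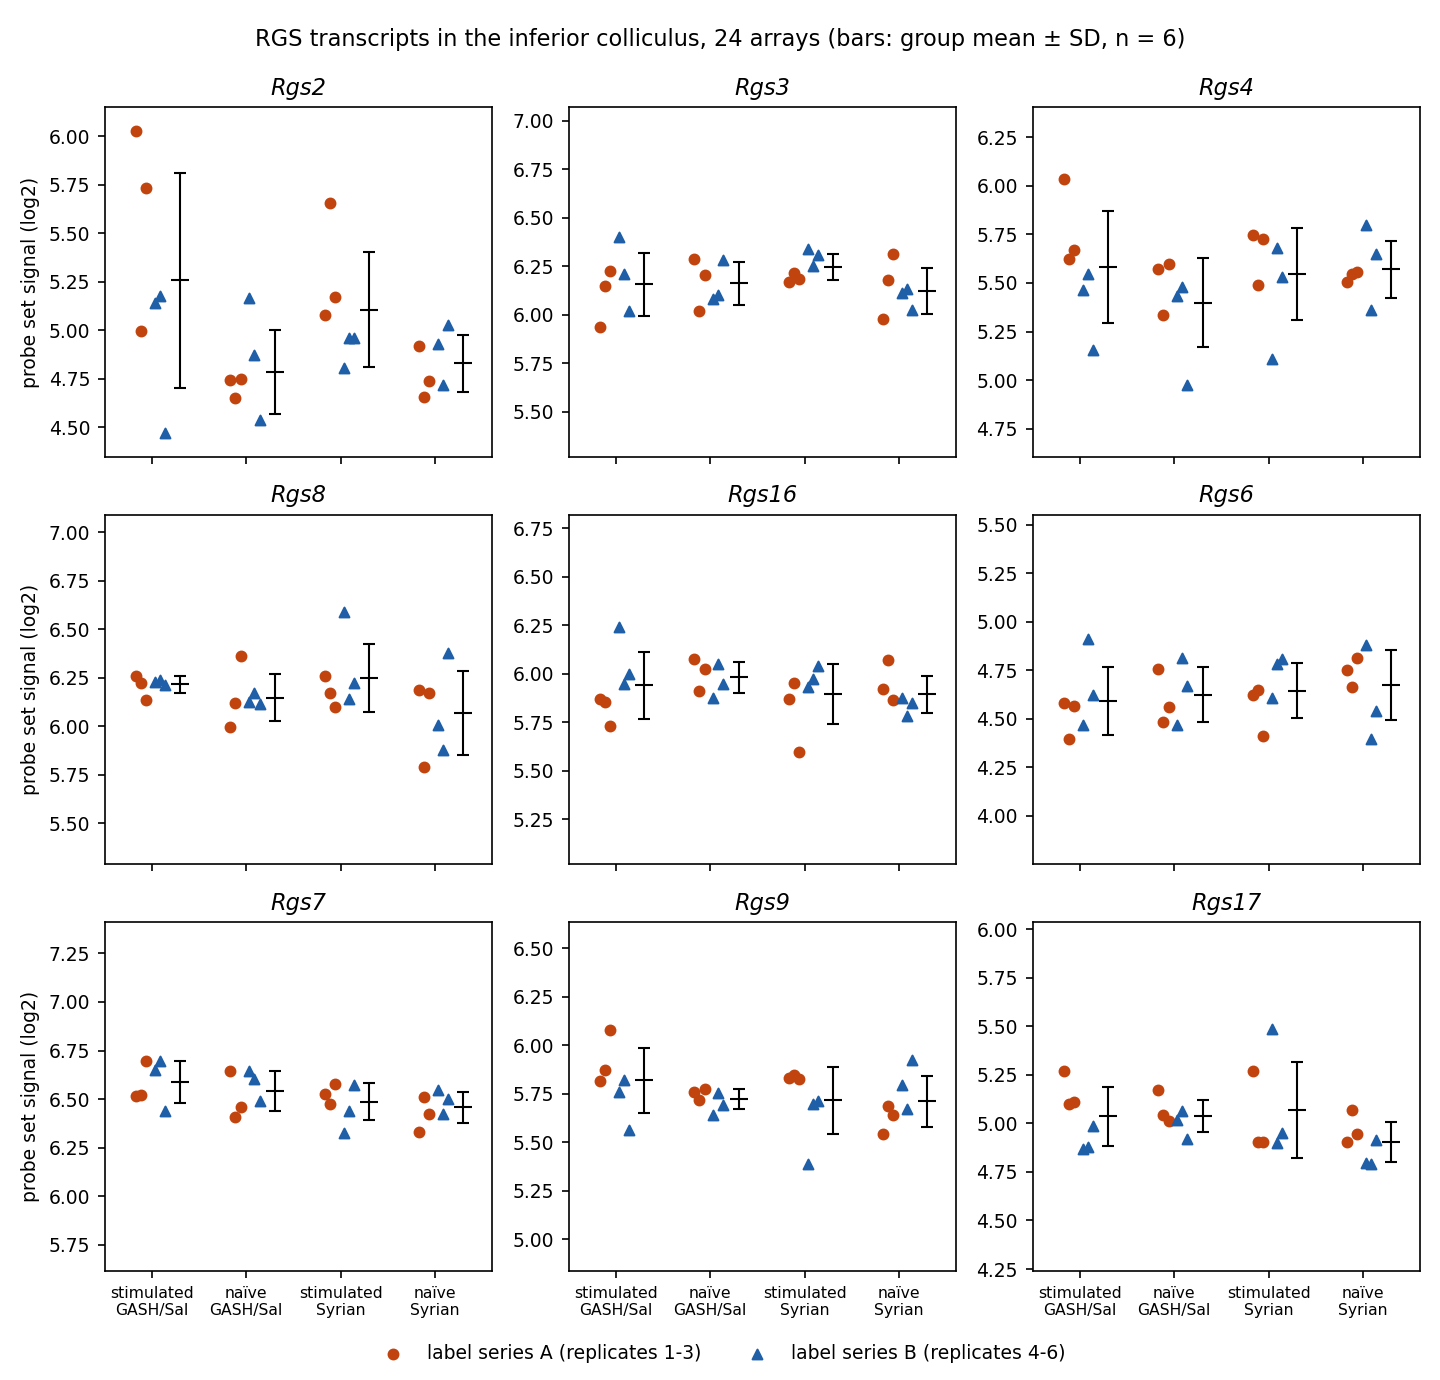
Signal (log2) of the 9 RGS genes on each array, in the 4 groups on the horizontal axis. Circles are label series A and triangles label series B, the bars give the group mean ± SD (n = 6), and every panel spans the same width in log2 units. Rgs2 spreads most, between 4.47 and 6.03, with its 3 highest values in stimulated animals of label series A, while Rgs7 stays between 6.33 and 6.70.

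Rgs2, whose protein acts mainly on the α subunit Gnaq that drives phospholipase C, was measured by probe set 10358389. In stimulated GASH/Sal hamsters it lay at 6.03, 4.99 and 5.73 in label series A and at 5.14, 5.18 and 4.47 in label series B. In naïve GASH/Sal hamsters it lay at 4.74, 4.65 and 4.75 in label series A and at 5.16, 4.87 and 4.54 in label series B. The 3 stimulated animals of series A were all above every naïve animal of that series, whereas in series B the groups overlapped and both the highest and the lowest array of the pair of groups held stimulated animals. The means were 5.26 ± 0.554 in stimulated GASH/Sal hamsters and 4.78 ± 0.216 in naïve ones (SD, n = 6 each), a difference of 0.47 ± 0.16 (log2, SE) or 1.39-fold, with a 95% interval of 1.10 to 1.74-fold. Its unadjusted p in limma was 0.00664 and its adjusted p 0.999, at rank 117 of 19938 genes. The two-sided exact permutation test of the same 6 against 6 arrays, without the label series, gave exact p = 0.0823.

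In stimulated Syrian hamsters Rgs2 lay at 5.08, 5.66 and 5.17 in label series A and at 4.81, 4.96 and 4.96 in label series B. In naïve Syrian hamsters it lay at 4.92, 4.65 and 4.74 in label series A and at 4.93, 4.72 and 5.03 in label series B. As in GASH/Sal, the 3 stimulated animals of series A were above all naïve animals of the same series and the groups of series B overlapped. The means were 5.10 ± 0.297 in stimulated and 4.83 ± 0.147 in naïve Syrian hamsters (SD, n = 6 each), a difference of 0.27 ± 0.16 (SE) with an interval of -0.06 to 0.60 (unadjusted p from limma 0.0998, adjusted p 0.782). The response was larger by 0.20 in GASH/Sal than in Syrian hamsters, with an interval of -0.27 to 0.66 that holds 0, so a difference between the strains in the response of Rgs2 was not detectable with these arrays, and without stimulated GASH/Sal replicate 1 this value was 0.05. Over both strains the difference was 0.37 ± 0.11 (SE), or 1.29-fold with an interval of 1.10 to 1.52-fold (unadjusted p 0.00275, adjusted p from limma 0.425).

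The strain differences of Rgs2 had intervals that held 0. Stimulated GASH/Sal were above stimulated Syrian hamsters by 0.15 (interval -0.18 to 0.48), or by 0.01 without stimulated GASH/Sal replicate 1, and naïve GASH/Sal hamsters were at -0.05 relative to naïve Syrian hamsters (interval -0.38 to 0.28). Ordered by mean, the groups ran stimulated GASH/Sal, stimulated Syrian, naïve Syrian and naïve GASH/Sal, and no step between neighbours passed an unadjusted p under 0.05 in limma (0.356, 0.0998 and 0.780 in this order). Leaving out 1 array at a time moved the GASH/Sal response between 0.33, without stimulated replicate 1, and 0.62, without stimulated replicate 6, and the Syrian response between 0.18, without stimulated replicate 2, and 0.34, without naïve replicate 6. Within groups and label series Rgs2 had an SD of 0.294, larger than that of 97.9% of all genes.

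**Figure D2:**
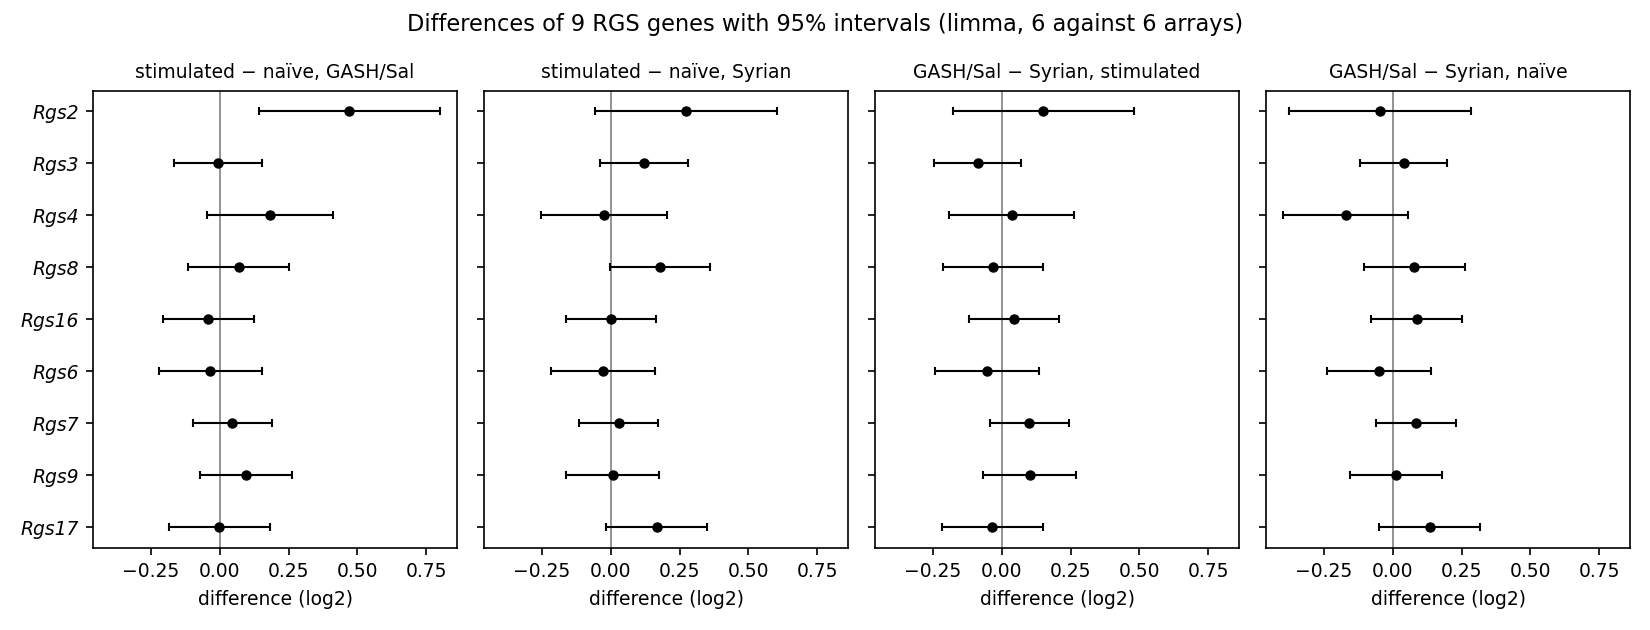
Log2 differences of the 9 genes with 95% intervals from limma, 6 against 6 arrays, for stimulated minus naïve in GASH/Sal and in Syrian hamsters and for GASH/Sal minus Syrian in stimulated and in naïve animals. The interval of Rgs2 in GASH/Sal, 0.14 to 0.80, is the only 1 of the 36 shown that leaves out 0.

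Rgs4, a brake on receptors coupled to Gi/o and Gq proteins in many neurons, was the R4 member with the next widest range, between 4.98 and 6.03. In stimulated GASH/Sal hamsters it lay at 6.03, 5.62 and 5.67 in label series A and at 5.46, 5.55 and 5.15 in label series B. In naïve GASH/Sal hamsters it lay at 5.57, 5.34 and 5.60 in label series A and at 5.43, 5.48 and 4.98 in label series B. Within series A every stimulated array was above every naïve array, and the lowest value of all 24 was on naïve GASH/Sal replicate 6, an array that stood apart. The GASH/Sal difference was 0.18 ± 0.11 (SE, unadjusted p 0.112, adjusted p from limma 0.999) and was 0.11 both without the pair of arrays that stood apart and without stimulated GASH/Sal replicate 1. In Syrian hamsters Rgs4 averaged 5.55 ± 0.239 in stimulated and 5.57 ± 0.148 in naïve animals (SD, n = 6 each), with a difference of -0.02 that became 0.05 without those arrays. The difference between naïve GASH/Sal and naïve Syrian hamsters, -0.17 (interval -0.40 to 0.06), likewise became -0.10 without them.

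Rgs8, which acts on Gi/o proteins and is best known from cerebellar Purkinje cells, had its lowest, median and highest values at 6.14, 6.22 and 6.26 in stimulated GASH/Sal, at 5.997, 6.12 and 6.36 in naïve GASH/Sal, at 6.10, 6.20 and 6.59 in stimulated Syrian and at 5.79, 6.09 and 6.38 in naïve Syrian hamsters. The SD of stimulated GASH/Sal arrays, 0.0428, was smaller than the 0.119, 0.176 and 0.218 of the other groups in the same order. The highest value belonged to stimulated Syrian replicate 4, which stood apart. With it the Syrian difference was 0.18 ± 0.09 (SE, unadjusted p 0.0542, adjusted p from limma 0.744), and without both arrays that stood apart it was 0.11. Purkinje and other cerebellar markers were read on the same arrays: their mean over 12 genes ran between 5.17 and 5.51 in stimulated Syrian and between 5.06 and 5.37 in naïve Syrian hamsters, with Pcp2 of Purkinje cells at percentile 53.5. Of the 12 genes En2 (0.21, unadjusted p 0.0155) and Car8 (0.26, unadjusted p 0.0348) passed an unadjusted p under 0.05 in the Syrian sound response, where 6.64% of all genes did. The part of the cerebellar markers in the Rgs8 values was not tested.

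Rgs16, which acts on Gi/o and Gq proteins, lay on opposite sides of 0 in the label series. In GASH/Sal hamsters of series A it was at 5.87, 5.85 and 5.73 in stimulated and 6.08, 5.91 and 6.02 in naïve animals, and in series B at 6.24, 5.95 and 5.999 in stimulated and 5.88, 6.05 and 5.95 in naïve animals. Every stimulated array of series A was below every naïve array there, and in series B the groups overlapped. In Syrian hamsters of series A it was at 5.87, 5.95 and 5.60 in stimulated and 5.92, 6.07 and 5.87 in naïve animals, and in series B at 5.93, 5.97 and 6.04 in stimulated and 5.88, 5.78 and 5.85 in naïve animals. The Syrian groups overlapped in series A, and in series B all stimulated arrays were above all naïve arrays. The mean sound response was -0.17 in series A and 0.13 in series B, and over both series the differences cancelled, to -0.04 in GASH/Sal and 0.00 in Syrian hamsters.

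Rgs3, an R4 protein with long amino-terminal forms, was read by a pair of probe sets that did not move alike. Probe set 10607113, the brighter and the one used, had its lowest, median and highest values at 5.94, 6.18 and 6.40 in stimulated GASH/Sal, at 6.02, 6.15 and 6.29 in naïve GASH/Sal, at 6.17, 6.23 and 6.34 in stimulated Syrian and at 5.98, 6.12 and 6.31 in naïve Syrian hamsters. Its mean sound response was 0.06 ± 0.05 (SE), whereas that of probe set 10505326 was -0.12 ± 0.05 (unadjusted p 0.0179, adjusted p from limma over every probe set 0.564). The dimmer probe set was at -0.13 in GASH/Sal and at -0.11 in Syrian hamsters, and the brighter at -0.01 in GASH/Sal and 0.12 in Syrian hamsters, so the sign of an Rgs3 difference in Syrian hamsters depended on the probe set.

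The 3 R7 genes, whose proteins need Gnb5 and act on Gi/o proteins, lay close together across groups. Rgs6 had lowest, median and highest values of 4.399, 4.57 and 4.91 in stimulated GASH/Sal, 4.47, 4.61 and 4.81 in naïve GASH/Sal, 4.41, 4.63 and 4.81 in stimulated Syrian and 4.39, 4.71 and 4.88 in naïve Syrian hamsters. Rgs7, which is found in many neurons, had 6.44, 6.58 and 6.70 in stimulated GASH/Sal, 6.40, 6.55 and 6.65 in naïve GASH/Sal, 6.33, 6.50 and 6.58 in stimulated Syrian and 6.33, 6.46 and 6.55 in naïve Syrian hamsters. All 4 groups overlapped for both genes. Rgs7 had the narrowest range of the 9 members, and its mean strain difference was 0.09 ± 0.05 (SE, unadjusted p 0.0723, adjusted p from limma 0.639). Its sign was the same in stimulated animals (0.10) and in naïve animals (0.08), and in label series A (0.07) and label series B (0.12).

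Rgs9, which ends the light response in retinal photoreceptors and, in another splice form, dampens dopamine signalling in the striatum, lay at 5.82, 5.87 and 6.08 in stimulated and 5.76, 5.72 and 5.77 in naïve GASH/Sal hamsters of series A. In series B it lay at 5.76, 5.82 and 5.56 in stimulated and 5.64, 5.75 and 5.69 in naïve GASH/Sal hamsters. In Syrian hamsters it lay at 5.83, 5.85 and 5.83 in stimulated and 5.55, 5.69 and 5.64 in naïve animals of series A. In series B of that strain it lay at 5.39, 5.70 and 5.72 in stimulated and 5.79, 5.67 and 5.92 in naïve animals, and the groups overlapped. The lowest value of all was again on stimulated Syrian replicate 4, and the Syrian difference in series B, -0.20, was -0.09 without it. Over both series the differences were 0.10 ± 0.08 in GASH/Sal and 0.01 ± 0.08 in Syrian hamsters (SE), the second being 0.07 without both arrays that stood apart. Striatal markers averaged over 5 genes between 5.46 and 5.57 in stimulated and between 5.36 and 5.80 in naïve GASH/Sal hamsters, overlapping ranges, and their part in the Rgs9 values was not tested.

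Rgs17, the RZ member, had lowest, median and highest values of 4.87, 5.04 and 5.27 in stimulated GASH/Sal, 4.92, 5.03 and 5.17 in naïve GASH/Sal, 4.90, 4.93 and 5.49 in stimulated Syrian and 4.79, 4.91 and 5.07 in naïve Syrian hamsters. All 6 naïve GASH/Sal arrays were above the mean of the naïve Syrian arrays, yet the groups overlapped, and the difference of 0.13 ± 0.09 (SE) had an unadjusted p of 0.143 and an adjusted p of 0.863 in limma. The Syrian sound response of 0.17 ± 0.09 (SE, unadjusted p 0.0731) rested on stimulated Syrian replicate 4, at 5.49, and was 0.07 without that array. The strain by sound difference of -0.17 was likewise -0.07 without it.

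For the 8 members other than Rgs2, the 95% intervals of the GASH/Sal sound response all lay between 0.857-fold and 1.33-fold, and those of the Syrian sound response between 0.840-fold and 1.29-fold. For the strain difference they lay between 0.843-fold and 1.20-fold in stimulated animals and between 0.758-fold and 1.25-fold in naïve animals. Changes beyond these bounds were outside the intervals over both label series with the probe sets used, and smaller ones could not be told from the spread between arrays. The bounds do not cover the dimmer Rgs3 probe set, at -0.13 ± 0.07 (log2, SE) in the GASH/Sal sound response. Nor do they cover a single label series. In the fit with 8 cells described below, the interval of Rgs4 in GASH/Sal hamsters of series A was -0.04 to 0.59 (log2). How well the mouse probes bound the hamster transcripts was not tested.

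The label series were compared because the sound response of Rgs2 lay mostly in 1 of them. Between the series themselves, averaged over the groups, 7.53% of all genes differed at an adjusted p under 0.05 and 20.8% at an unadjusted p under 0.05. None of the 9 members passed the first threshold and 1 passed the second, Rgs4, which was lower in series B than in series A by 0.19 (difference -0.19, unadjusted p 0.0234, adjusted p from limma 0.155). Without both arrays that stood apart the difference of Rgs4 was -0.10 (unadjusted p 0.128), and that of Rgs17, -0.09 over all arrays (unadjusted p 0.143), was -0.13 (unadjusted p 0.0193). In a fit with the 8 cells of group and series, the mean sound response of Rgs2 was 0.70 ± 0.14 in series A (SE, interval 0.41 to 0.99, adjusted p from limma 0.0310), where 62 genes or 0.311% of all genes passed. In series B it was 0.04 ± 0.14 (SE, interval -0.25 to 0.34, adjusted p 0.957). The fit with 8 cells was added after these values were seen, and the adjustment over genes does not cover the choice of series A. The call of Rgs2 in series A was lost (adjusted p from limma up to 0.111) in 9 of 24 fits that left out 1 array. These were the fits without stimulated GASH/Sal replicate 1 or 3, naïve GASH/Sal replicate 1, 2 or 3, stimulated Syrian replicate 2 or 3, or naïve Syrian replicate 2 or 3. Its values lay between 0.59 and 0.85 over the 24 fits. Fitted to the 12 arrays of series A alone, the same difference had an adjusted p of 0.0126, where 444 genes or 2.23% passed. The GASH/Sal response of series A alone was 0.87 with an adjusted p of 0.103, where 7 genes or 0.0351% passed. In the fit with 8 cells the same response had an adjusted p of 0.320, and of the 24 fits that left out 1 array it passed in 1, without stimulated GASH/Sal replicate 2 (1.17, adjusted p from limma 0.0203), where 0.0552% of all genes passed.

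**Figure D3:**
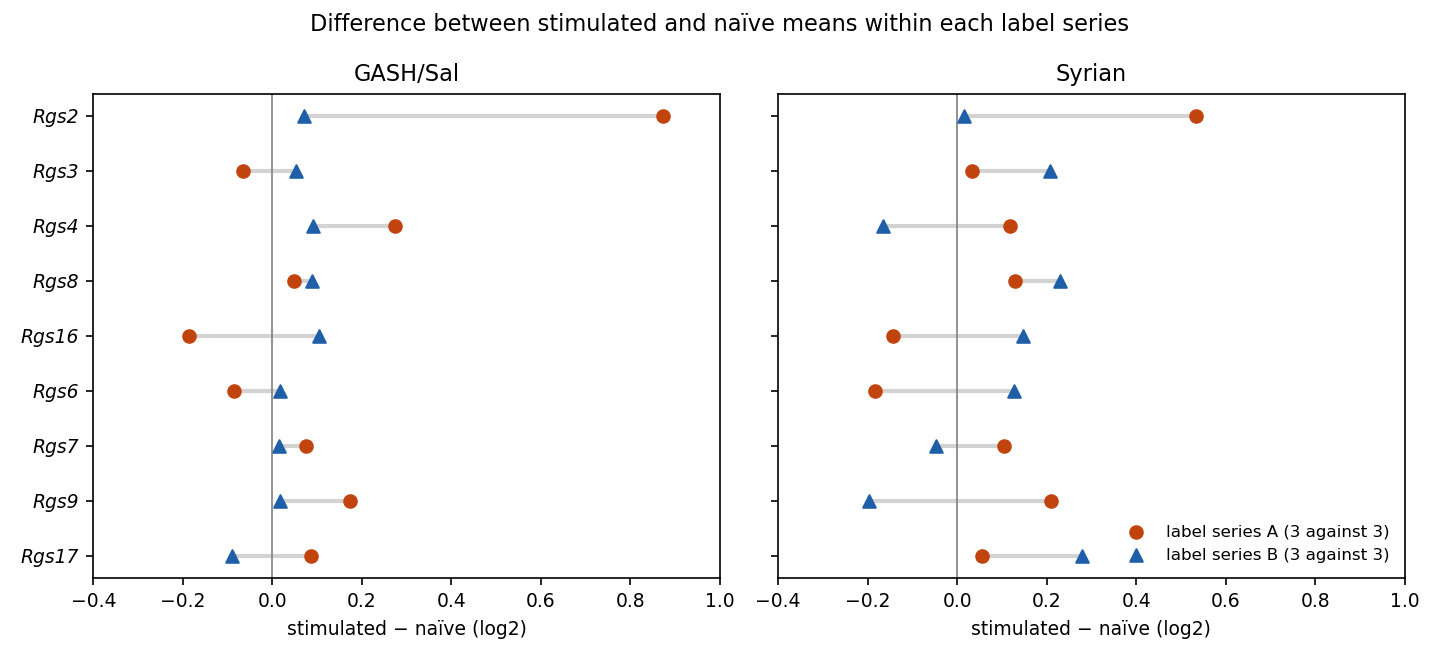
Difference between stimulated and naïve means (log2) of each RGS gene in GASH/Sal hamsters, at the left, and in Syrian hamsters, at the right, with label series A as circles and label series B as triangles (3 against 3 arrays each). Rgs2 lies at 0.87 for series A and at 0.07 for series B in GASH/Sal hamsters, and in Syrian hamsters it lies at 0.53 for series A and at 0.02 for series B, and Rgs16 lies on opposite sides of 0 in both strains.

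The difference between the series in the sound response was tested directly. For Rgs2 the mean sound response of series B minus that of series A was -0.66 ± 0.20 (SE, unadjusted p from limma 0.00300, adjusted p 0.190), for Rgs9 it was -0.28 ± 0.10 (unadjusted p 0.0119, adjusted p 0.258) and for Rgs16 it was 0.29 ± 0.10 (unadjusted p 0.00950, adjusted p 0.245). These 3 of 9 members passed at an unadjusted p under 0.05, where 12.6% of all genes did, and none passed after adjustment, where 0.00502% of all genes did. Within GASH/Sal hamsters Rgs2 passed (difference -0.80, unadjusted p 0.00923), where 6.57% of all genes did, and within Syrian hamsters Rgs9 passed (difference -0.41, unadjusted p 0.0104), where 10.1% did. Neither passed after adjustment, nor did any other gene in either strain (0% in both). The values for Rgs9 were -0.30 in Syrian hamsters and -0.23 over both strains without both arrays that stood apart. What sets the label series apart, and its part in these differences, was not tested.

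Fitted to the arrays of series A alone, 2 members were at an unadjusted p under 0.05 in the GASH/Sal sound response (Rgs2 and Rgs4), where 8.97% of all genes were, 2 in the Syrian response (Rgs2 and Rgs9), where 15.4% were, and 4 in the mean sound response (Rgs2, Rgs4 and Rgs9 upward and Rgs16 downward), where 17.9% were. Fitted to the arrays of series B alone, no member was, where 3.82%, 4.45% and 5.35% of all genes were in the same order. Some calls depended on the fit. In the fit with cells of group and series, Rgs17 was at 0.28 in the Syrian response of series B (unadjusted p from limma 0.0333). It was at 0.09 without both arrays that stood apart (unadjusted p 0.413). In series A of that fit Rgs4 did not pass in GASH/Sal hamsters (unadjusted p 0.0856) or in the mean (unadjusted p 0.0826). Nor did Rgs9 in the Syrian response (unadjusted p 0.0539), while the other calls of series A held. For that fit the share of all genes is not given here.

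Within a series, 3 stimulated arrays were set against 3 naïve arrays, and the members whose arrays did not overlap were counted beside all genes. In series A of GASH/Sal hamsters Rgs2, Rgs4 and Rgs9 lay wholly above (9.6% of all genes did) and Rgs16 wholly below (4.81%). In series B of GASH/Sal hamsters Rgs8 lay wholly above (5.23%) and no member wholly below (4.36%). In Syrian hamsters Rgs2 and Rgs9 lay wholly above in series A (11.3%) and Rgs6 wholly below (9.73%), while in series B Rgs3 and Rgs16 lay wholly above (6.44%) and no member wholly below (3.4%). Rgs2 and Rgs9 were thereby the members above in series A of both strains, which 3% of all genes were. No member lay wholly above in both series of a strain. The share of all genes that did is not given here, so nothing is concluded from that count.

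How far members moved together was described over the 24 arrays after subtraction of each series' mean. Of the 36 pairs of members, 20 had a Pearson correlation above 0, the median was 0.05, and the extremes were 0.69 for Rgs7 with Rgs9 and -0.27 for Rgs9 with Rgs17. The first was 0.51 without the 2 arrays farthest from the median of Rgs7, and the second was 0.08 without those farthest for Rgs9, 0.37 within series A and -0.74 within series B, so its sign rested on series B. Rgs2, Rgs4, Rgs7 and Rgs9 formed the 6 pairs with the highest values but for Rgs8 with Rgs17 (0.52), a pair whose value was 0.31 without the 2 arrays farthest from the median of Rgs8, 1 of them stimulated Syrian replicate 4. Rgs2 correlated at 0.58 with Rgs4, at 0.54 with Rgs9 and at 0.44 with Rgs7. The arrays share groups, label series and normalisation, so these are descriptions and not tests.

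The genes most like Rgs2 over the 24 arrays were Klf7, a Krüppel-like transcription factor of neurons (r = 0.89, Spearman's rho 0.85), Npas4, a transcription factor induced by neuronal activity (r = 0.84, rho 0.75), and Homer1, a scaffold of the postsynaptic density with an activity-induced short form (r = 0.81, rho 0.73). Without the 2 arrays on which Rgs2 was farthest from its median, r was 0.86 for Klf7, 0.78 for Npas4 and 0.72 for Homer1, and within label series B it was 0.79, 0.64 and 0.56 in the same order. Their own mean sound responses were 0.40 for Klf7, 0.43 for Npas4 and 0.30 for Homer1, beside 0.37 for Rgs2, and none passed an adjusted p under 0.05 in limma (adjusted p 0.321, 0.370 and 0.143 in the same order). The correlations by which these genes were picked kept the group differences. A like sound response therefore follows in part from that choice, and nothing is concluded from it.

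**Figure D4:**
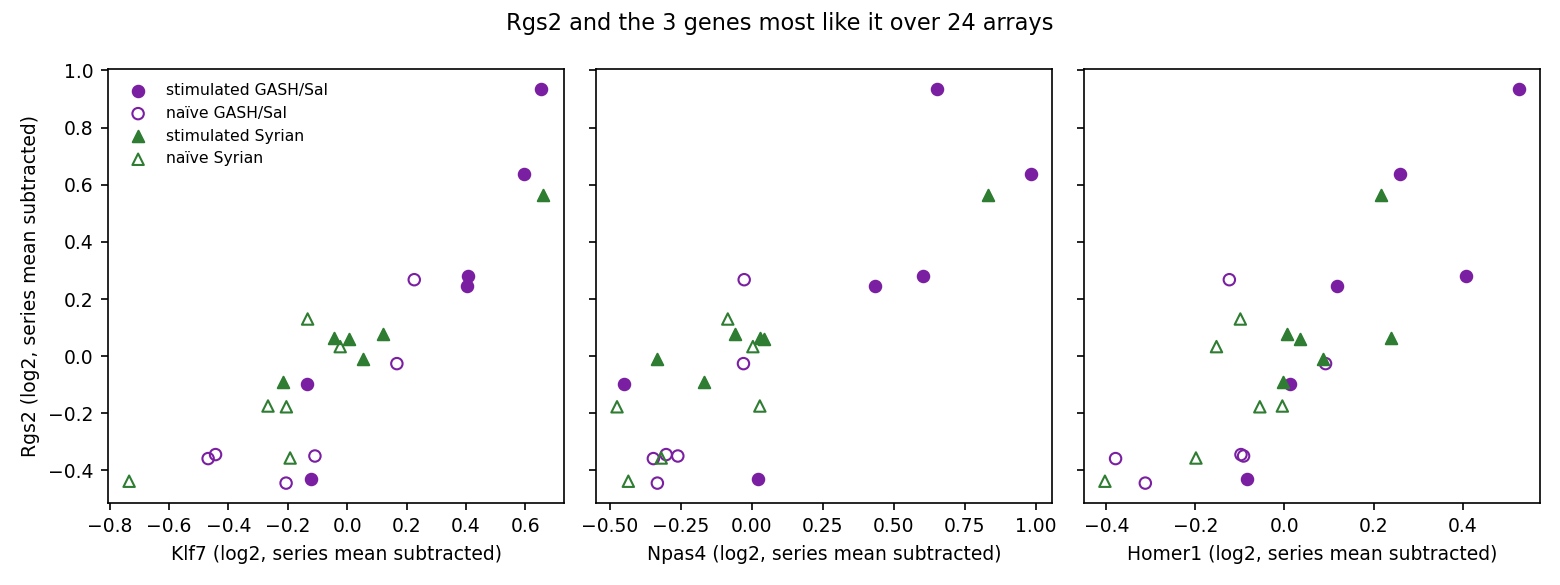
Rgs2 (vertical axis) against Klf7, Npas4 and Homer1 (horizontal axes) on the 24 arrays, each as log2 signal with the mean of its label series subtracted. Filled symbols are stimulated and open symbols naïve animals, circles GASH/Sal and triangles Syrian hamsters, and the correlations are 0.89, 0.84 and 0.81 from left to right. The 4 highest values of Rgs2 belong to stimulated animals, and 3 of the 6 stimulated GASH/Sal animals lie below the highest naïve animal.

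Rgs4 was most like Gnai3 (r = 0.82), which encodes an inhibitory α subunit, with 0.81 for Armcx3 and 0.78 for Srsf6. Rgs7 was most like Vezf1 (0.85) and Rgs9 most like 1810010H24Rik (0.81). Rgs8 was most like Slc10a2 (0.80), at signal percentile 11.8, which came to 0.71 without the 2 arrays farthest from the median of Rgs8. The highest correlation was 0.79 for Rgs17 (Chd9), 0.73 for Rgs6 (4933405L10Rik), 0.70 for Rgs16 (Slc27a2) and 0.70 for Rgs3 (Ssmem1). Each of these genes was picked as the closest of all genes tested, so the values are high in part by that choice.

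The rest of the G-protein pathway was read from lists of its parts, and most of it lay close to 0. None of the 11 other RGS genes on the array list (Rgs1, Rgs5, Rgs11, Rgs12, Rgs13, Rgs14, Rgs18, Rgs19, Rgs20, Rgs21 and Rgs22) passed an unadjusted p under 0.05 in the sound response of either strain, and their median mean sound response was 0.04, with 11 of 11 above 0 where 58.3% of all genes were. At an unadjusted p under 0.05, 4.46% of all genes passed in the GASH/Sal sound response and 6.64% in the Syrian response. The median mean sound response of the 9 members was 0.06, and that of all genes 0.01. Rgs5, a marker of pericytes, was at 0.08 (unadjusted p 0.130) and Rgs14, found in hippocampal neurons, at 0.04. Several of these other genes were dim, with Rgs18 at percentile 1.87, Rgs13 at 2.32 and Rgs1 at 5.86.

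The partners of the R7 proteins were Gnb5, which all of them bind, the membrane anchors Rgs7bp and Rgs9bp, and the receptors Gpr158 and Gpr179. Gnb5 was at -0.01 in the mean sound response (percentile 92.7), and none of the 5 passed an unadjusted p under 0.05 in the sound responses. Rgs7bp, which holds R7 proteins at the membrane, was higher in GASH/Sal than in Syrian hamsters by 0.19 ± 0.07 in the mean strain difference (SE, unadjusted p 0.00813, adjusted p from limma 0.538) and by 0.22 in stimulated animals (unadjusted p 0.0272), and neither passed after adjustment. Rgs7 itself was at 0.09 in the same mean strain difference. Of all genes, 7.99% passed the unadjusted threshold in the mean strain difference and 5.42% in the stimulated strain difference. In the sound responses 4.46% of all genes passed in GASH/Sal and 6.64% in Syrian hamsters.

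Of 15 α subunit genes tested, none passed an unadjusted p under 0.05 in the sound response of either strain, and Gnai2 alone did so in the strain comparisons, at 0.23 in stimulated animals (unadjusted p 0.0135) and 0.15 in the mean strain difference (unadjusted p 0.0177). Of 16 β and γ subunit genes, Gng12 was at 0.21 in the GASH/Sal sound response (unadjusted p 0.00744), and in the Syrian response Gng5 was at 0.21 (unadjusted p 0.0106) and Gng7, a γ subunit of the striatum, at -0.23 (unadjusted p 0.00477). In the strain comparisons Gnb1 was at 0.15 in the mean (unadjusted p 0.00838) and Gng5 at -0.17 in stimulated animals (unadjusted p 0.0305). Of 17 effector genes, the adenylyl cyclases Adcy6 (0.18, unadjusted p 0.0242) and Adcy9 (0.14, unadjusted p 0.0415) passed in the GASH/Sal sound response and none in the Syrian response. Plcb4, a phospholipase C that Gq proteins drive, was at 0.19 in the stimulated strain difference (unadjusted p 0.0294), and Adcy1 was at 0.17 and Adcy9 at -0.15 in the naïve strain difference (unadjusted p 0.0271 and 0.0312). No gene of these lists passed an adjusted p under 0.05 in limma in any of the comparisons. None of 6 receptor kinase and arrestin genes passed an unadjusted p under 0.05 in the sound responses, and none of 5 other regulators of α subunits did. Of these, Gpsm2 was at 0.17 in the naïve strain difference (unadjusted p 0.0374). At the unadjusted threshold 4.46% of all genes passed in the GASH/Sal sound response and 6.64% in the Syrian response. For the strain differences, 6.02% passed in naïve animals, 5.42% in stimulated animals and 7.99% in the mean. The counts from these lists are not read as results about the pathway.

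Genes known to be induced by neuronal activity were set beside the RGS genes. Of 11, 9 passed an unadjusted p under 0.05 in the GASH/Sal sound response, all upward, with a median of 0.36, and 3 passed in the Syrian response, also upward, with a median of 0.13. Of all genes, 4.46% and 6.64% passed in the same order. Fos, an immediate-early transcription factor, was at 0.68 ± 0.12 in GASH/Sal (SE, adjusted p from limma 0.0576) and 0.48 ± 0.12 in Syrian hamsters (adjusted p 0.570), and its mean sound response of 0.58 passed (adjusted p 0.00222). Rgs2, at 0.47 in GASH/Sal and 0.27 in Syrian hamsters, lay within the range of this list. The other 8 members lay between -0.04 and 0.18 in GASH/Sal and between -0.03 and 0.18 in Syrian hamsters.

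Markers of other cell types were read as whole lists beside the sound response of Rgs2 in GASH/Sal hamsters. Microglial markers (8 genes) averaged between 4.44 and 4.65 in stimulated and between 4.42 and 4.59 in naïve animals, and markers of pericytes and vessels (8 genes) between 5.26 and 5.51 in stimulated and between 5.22 and 5.62 in naïve animals. Astrocyte markers (6 genes) averaged between 6.24 and 6.42 in stimulated and between 6.12 and 6.47 in naïve animals. These ranges overlapped, and none of the 3 lists had a gene at an unadjusted p under 0.05 in that response. Oligodendrocyte markers (5 genes) averaged between 6.03 and 6.23 in stimulated and between 5.89 and 6.23 in naïve animals, and Mog (0.22, unadjusted p 0.0169) and Mobp (0.20, unadjusted p 0.0132), both genes of myelin, were higher in stimulated animals before adjustment. Markers of the inferior colliculus and neurons (9 genes) averaged between 7.55 and 7.74 in stimulated and between 7.46 and 7.71 in naïve animals, and none of them was at an unadjusted p under 0.05 in that response. Of all genes, 4.46% were.

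In the mean sound response over both strains, 2 of those 9 markers passed an unadjusted p under 0.05, Tfap2d (0.21, unadjusted p 0.0105) and Slc17a6 (0.20, unadjusted p 0.0444), which encode a transcription factor of the midbrain and a vesicular glutamate transporter. Of the 5 oligodendrocyte markers 3 passed, Mbp (0.10, unadjusted p 0.0371), Mog (0.13, unadjusted p 0.0423) and Mobp (0.18, unadjusted p 0.00290). All were higher in stimulated animals, none passed an adjusted p under 0.05 in limma, and no gene of the lists for microglia, pericytes and vessels or astrocytes passed the unadjusted threshold. Of all genes, 7.39% passed the unadjusted threshold. The part of these cells in the RGS values was not tested.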

How the data were processed

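The authors deposited log2 probe set signals of 24 mouse whole-transcript arrays, made with RMA per the labels (no version is given in the sources used here), which corrects background, normalises between arrays and summarises probes. All 24 columns matched a labelled animal, none was identical to another, and 0 columns were left out. Of 35556 probe sets, 21789 carried 1 gene symbol, 1621 carried several and 12146 had no symbol listed. Probe sets with 1 symbol were tested, with the brightest kept for each of 999 genes that had several, which left 19938 genes. Rgs10 had no entry in the annotation used. Signals were not filtered.

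Differences were fitted with limma (version 3.58.1, R version 4.3.3), using lmFit and eBayes with default settings on the 4 groups and the label series, with 19 residual degrees of freedom. Tests were two-sided, and adjustment was by Benjamini-Hochberg over all genes at a threshold of 0.05. Each interval covers 95% and comes from the same fit. Arrays are named biological replicates in the labels, so a p-value refers to the variation from array to array. Depth is not a property of arrays, and their number limits the precision. The fit was tested on simulated data. The members, gene lists and tests were chosen with earlier results of these data known. Named genes were the members, the 3 genes most correlated with each, and list genes at an unadjusted p under 0.05, and other genes named were chosen after their values were seen. The 8-cell fit of group and series, its leave-one-out fits and the fit without the pair of arrays that stood apart were added after seeing the data. No sequences were analysed here.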

Additional observations from a re-analysis of the deposited data

Results flagged for a closer look

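In 2 of 36 sets of 6 arrays (9 members in 4 groups), 1 array lay farther from the other 5 than Dixon's 95% critical value of 0.625 allows, and chance gives about 1 in 20. Both were stimulated Syrian replicate 4, where Rgs8 was at 6.59 with the nearest other array at 6.26 (gap over range 0.672) and Rgs9 was at 5.39 with the nearest other array at 5.70 (gap over range 0.670). That array also stood apart over all genes.

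The sound response differed between label series B and A at an unadjusted p under 0.05 for 3 members. The differences, B minus A, were -0.80 for Rgs2 in GASH/Sal hamsters, -0.66 for Rgs2 over both strains, -0.41 for Rgs9 in Syrian hamsters, -0.28 for Rgs9 over both strains and 0.29 for Rgs16 over both strains. None passed an adjusted p under 0.05 in limma. Over 24 fits that left out 1 array each, the value over both strains ran from -0.81 to -0.54 for Rgs2, from -0.31 to -0.23 for Rgs9 and from 0.24 to 0.33 for Rgs16, and that of Rgs9 in Syrian hamsters from -0.47 to -0.30, with an unadjusted p under 0.05 in all of them. That of Rgs2 in GASH/Sal hamsters ran from -1.10 to -0.57 and was at an unadjusted p of 0.0502 without stimulated GASH/Sal replicate 6.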

How the results depend on the processing

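The number of members at an adjusted p under 0.05 in the comparisons of the 4 groups was 0 in every setting but 1, the mean sound response in label series A alone, where 1 member (Rgs2) passed. The fit with 8 cells gave the same call for series A (adjusted p 0.0310), and its 24 fits without 1 array gave 1 more, the GASH/Sal response of Rgs2 in series A without stimulated GASH/Sal replicate 2 (1.17, adjusted p 0.0203). At an unadjusted p under 0.05, label series A alone gave 2 members in the GASH/Sal sound response (8.97% of all genes), 2 in the Syrian response (15.4%) and 4 in the mean sound response (17.9%), and label series B alone gave 0 in the GASH/Sal (3.82%) and 0 in the mean sound response (5.35%). The Syrian response, with 0 members over all arrays, had 1 member with only its 2 groups in the fit, with median centring, with array weights and with an exact permutation test (Rgs2, exact p = 0.0411). The naïve strain difference had 1 with array weights and 1 with the exact permutation test (Rgs17, exact p = 0.0368), and that test gave 0 in the GASH/Sal sound response (Rgs2, exact p = 0.0823). It was two-sided and run on 36 values without the label series. Testing every probe set gave 2 members in the mean sound response. Of these, Rgs3 passed by its dimmer probe set only (-0.12, unadjusted p from limma 0.0179), opposite in sign to the brighter one (0.06). Median centring gave 1 in the mean strain difference. A fold of at least 1.5 with an unadjusted p of at most 0.05 in limma gave 0 in the GASH/Sal sound response, where 5 of all genes passed. In the mean sound response it also gave 0, where 1 of all genes passed. Leaving out each of the 24 arrays in turn gave 1 to 2 members in the GASH/Sal sound response, 0 to 2 in the Syrian response, 1 to 2 in the mean sound response and 0 to 1 in the mean strain difference. Where no share or number of all genes stands beside a count in this paragraph, the count is not read as a result about the members. The cause of these changes was not tested.

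With the replicate number as a block (replicate block) in place of the label series, the GASH/Sal response of Rgs2 was 0.47 (adjusted p from limma 0.999) and its mean sound response 0.37 (adjusted p 0.524), and no call changed. The deviations of same-numbered arrays from their group means correlated at -0.16 to 0.32 (median 0.05, 36 pairs). Same-numbered arrays also belong to the same label series, so these values do not tell whether their animals were paired. Of 2297 values of members under the alternatives, 2275 kept their side of the threshold and stayed within 1 SD, 21 moved further, all of them in label series A alone or B alone, and 1 gained a call (Rgs2, above). The sign changed in 108, none of them a called value. With 3 arrays per group and label series, values within a series are the least precise ones given here.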
